A study of Mus musculus with 6 samples.

Results

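The protein kinase C and D family was followed through resting mouse CD4 T cells that had or had not been treated with vasoactive intestinal peptide (VIP). Its members were taken by gene name from the array's non-control probes. Prkca, Prkcd, Prkce, Prkch, Prkci, Prkcq, Prkcz, Prkd1, Prkd2 and Prkd3 make 10 of the 28632 gene names on the array, with 21 probes. The family was chosen by results of the same VIP contrast that is described here, above all the rise of Prkca. The values below therefore describe the family, and the p-values printed beside members come from the model over all genes and are no independent evidence.

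VIP-treated cells were set against untreated ones, and both were CD4 T cells that anti-CD4 magnetic beads had drawn from spleens of the C57BL/6J strain. The mice were males and females aged 6 to 32 weeks, and 5 to 10 spleens went into a sample. There were 6 biological replicates, each an Agilent array of 2 colours with a VIP-treated sample in 1 channel and an untreated sample in the other. On odd-numbered replicates Cy5 marked the VIP-treated RNA, and on even-numbered ones Cy3 did. Neither a dose nor a treatment time is stated in the labels used here. In RNA of a whole sample, fewer cells of a type and less RNA per cell cannot be told apart.

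Protein kinase C (PKC) enzymes are serine and threonine kinases that sit downstream of phospholipase C. The classical forms, such as the product of Prkca, are activated by calcium and diacylglycerol together, the calcium-independent forms by diacylglycerol alone, and the atypical forms by neither. Protein kinase D (PKD) enzymes bind diacylglycerol through related domains and are in turn phosphorylated by the calcium-independent PKC forms. In T cells these kinases carry signals from the antigen receptor to NF-kappaB, to class II histone deacetylases and to the cytoskeleton. VIP itself binds receptors of the G protein-coupled kind, through which the level of cyclic AMP rises.

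The finding turns on few probes, so the probes behind the largest ratios are shown with the first 30 of their 60 bases, written 5′ to 3′, and the junction-spanning probe of Prkce is shown whole. All letters are in lower case because no part of a probe is singled out. Positions are on mm9, as the scanner tables give them, and no exon or UTR annotation of that build was used here.
Prkca, probe A_51_P118012, chr11:107800035-107800094, minus strand: agcatatgaaatcatttcagatcaaggata
Prkce, probe A_51_P352782, chr17:87057169-87057228, plus strand: gtaaacattattgtgccaaatgtactgtac
Prkce, probe A_52_P31593, chr17:87029540-87053932, plus strand: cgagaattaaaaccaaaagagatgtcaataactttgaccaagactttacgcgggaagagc
Prkce, probe A_52_P375455, chr17:86895339-86895398, plus strand: acgttatcctacaagacgatgatgtggact
Prkd2, probe A_51_P499441, chr7:17455468-17455527, plus strand: tggaggggccagggaaatagactcttccca
Over the 191 pairs of probes that belong to different members, the longest run of bases shared on either strand was 10, so no probe of the family repeats a long stretch of another member's probe.

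With VIP, 568 of 19225 genes tested changed, 312 upward and 256 downward (limma, Benjamini-Hochberg adjusted p under 0.05), and 3109 had an unadjusted p under 0.05. The split moved with the scaling, to 199 higher and 99 lower with median centring, 24 and 9 from processed signals of the scanner software, and 31 and 10 with the authors' deposited log ratios. Of the listed markers, 8 of 8 in the CD4 T cell list stood well above background in both channels of all 6 arrays. That list holds Cd4 beside Cd3d, Cd3e, Cd3g, Lck, Cd28, Cd5 and Trat1. So did 2 of 2 CD8 T cell and 5 of 5 B cell markers, and 6 of 7 of macrophages and neutrophils stood there too. Of NK cell markers 1 of 3 did, of platelet markers 2 of 4 and of measured erythroid markers 2 of 3. No marker of these 7 lists was called by limma, and 4 had an unadjusted p under 0.05, with list medians of the log2 ratio from -0.10 for erythroid and for B cell markers to 0.09 for macrophages and neutrophils. Summed B cell marker intensity ran from 11639 to 21771 in VIP-treated samples and from 13585 to 23933 in untreated ones. For CD8 T cells it ran from 4695 to 9105 and from 3801 to 7241. Of their 2 markers, with log2 ratios of 0.04 and 0.13, 1 had an unadjusted p under 0.05 by limma. For macrophages and neutrophils the sum ran from 1186 to 2462 and from 1136 to 2714. The part of any of these cells in the family's results was not tested. Sex-linked transcripts showed that the pools of 2 replicates were not matched, with log2 ratios of Xist of -6.11 on replicate 3 and 2.03 on replicate 6, against -0.07 to 0.24 on the others.

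Of the 10 members, 9 passed the filters on signal and were tested, which left out Prkd1, and 3 of the 9 were called, against 2.95% of all genes. Prkca and, by its brightest probe, Prkce rose, where 1.62% of all genes were called higher, and Prkd2 fell, where 1.33% were called lower. Only Prkca had levels that did not overlap between the 6 VIP-treated and 6 untreated samples, which held for 0.25% of all genes. Because the contrast itself led to the family, nothing is read from these shares. The median log2 ratio of the 9 members was -0.0105, beside -0.005 over all genes, and the median size was 0.086, beside 0.049 over all genes. Members of the family thus stood on both sides of 0, and most stood near it.

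**Figure D1:**
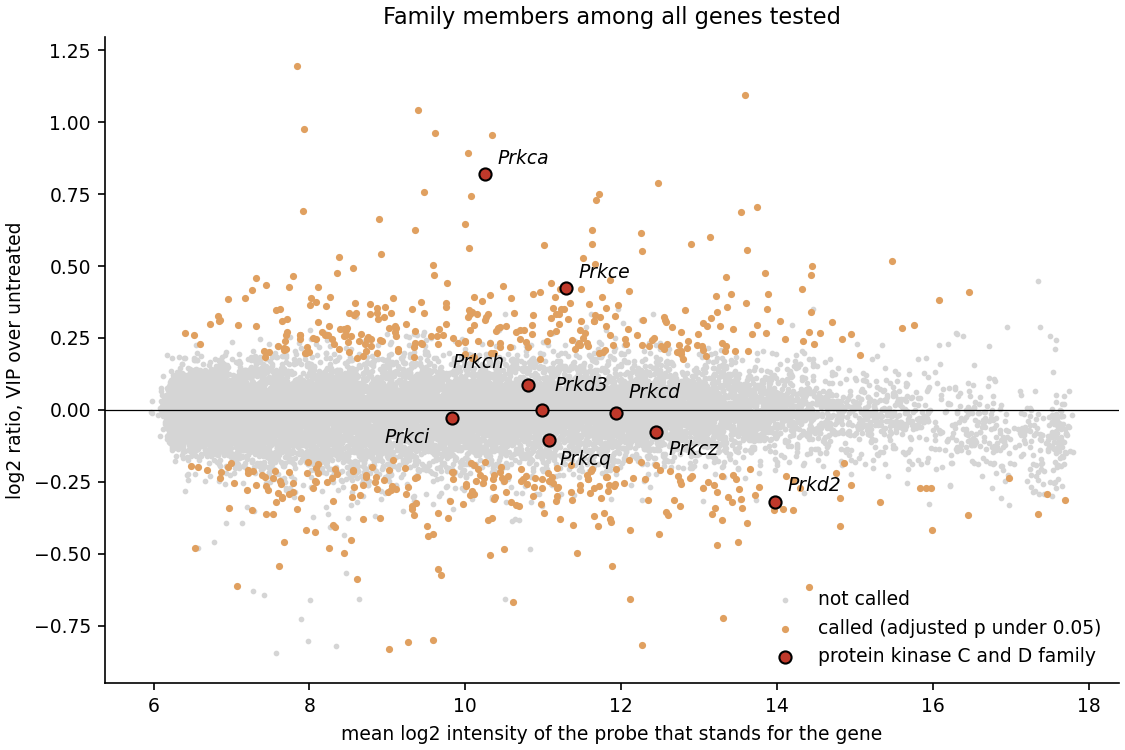
Log2 ratio of VIP-treated over untreated (vertical axis) against mean log2 intensity (horizontal axis) of the probe that stands for each of 19225 genes, with called genes in orange and the 9 tested family members in red. Prkca and Prkce stand above the cloud of uncalled genes and Prkd2 below it, while the other 6 members lie inside it.

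Prkca encodes PKC alpha, the only classical form among the 10. Its level was taken as log2 intensity after scaling between arrays. In VIP-treated samples its lowest, median and highest values were 10.45, 10.65 and 11.03, against 9.52, 9.74 and 10.26 in untreated samples. All 6 VIP-treated samples lay above all 6 untreated ones. Prkca rose 1.76-fold with VIP, a log2 ratio of 0.82 ± 0.071 (SE, 6 arrays, 95% interval 0.66 to 0.98, adjusted p = 0.000188 by limma). By size it was number 8 among the 312 genes called higher, at the 99.96th percentile of all log2 ratios.

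Before any dye correction, the log2 ratio of Prkca was 0.87, 1.04, 0.68, 0.99, 0.87 and 0.47 on replicates 1 to 6. It was positive on every array, and the fitted effect of Cy5 over Cy3 on this probe was only -0.01. Replicate 6 had the lowest ratio and replicate 3 the next lowest, and these are the arrays whose pools differed in sex-linked transcripts, whose part in this was not tested. Over the 4 arrays whose pools matched in sex-linked transcripts, a choice made after seeing the data, the log2 ratio was 0.94. Within slides 1, 2 and 3, which held replicates 1 and 2, 3 and 4, and 5 and 6, it was 0.95, 0.83 and 0.67. The gene has a single probe on the array, so no second reading of its transcript was made.

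**Figure D2:**
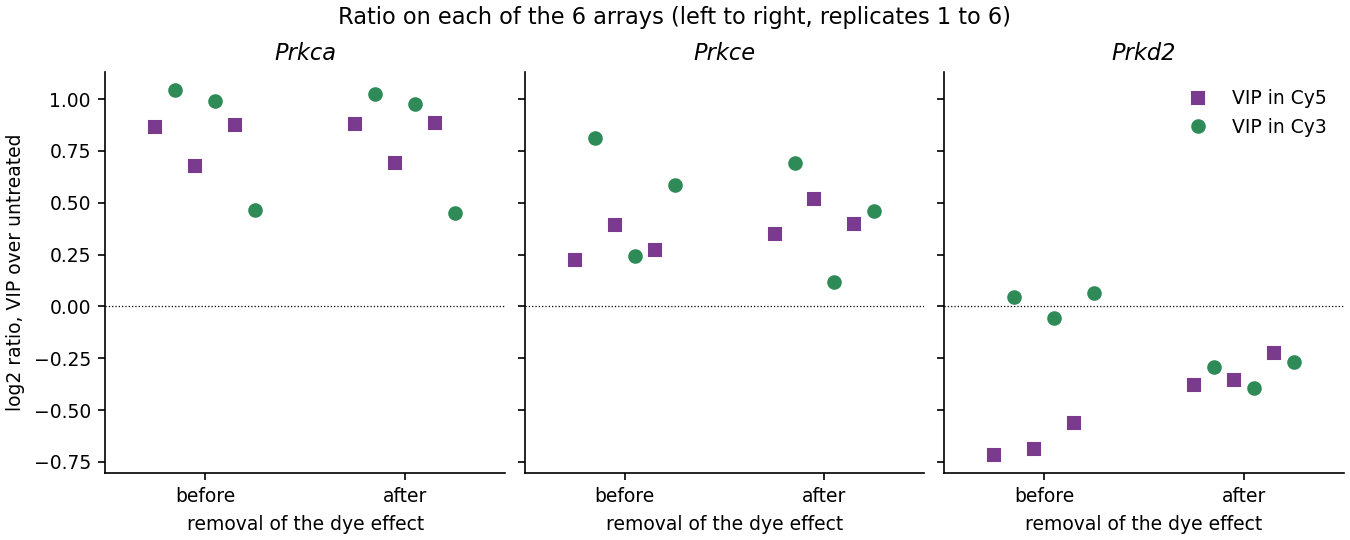
Log2 ratio of VIP-treated over untreated (vertical axis) on each of the 6 arrays, before and after removal of the fitted dye effect, for Prkca, Prkce and Prkd2. Squares are arrays with VIP-treated RNA in Cy5 and circles those with it in Cy3, and the raw ratios of Prkd2 split by dye while those of Prkca do not.

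The genes of the calcium-independent PKC forms were Prkcd, Prkce, Prkch and Prkcq. Prkce, which encodes PKC epsilon, was the only one of the 4 that was called. Its brightest probe, which stands for the gene, had levels with a lowest value of 11.34, a median of 11.45 and a highest value of 11.73 in VIP-treated samples, against 10.82, 11.07 and 11.36 in untreated samples. The groups overlapped by a margin of 11.34 against 11.36, and all 6 arrays had a higher level with VIP. By this probe Prkce rose 1.34-fold, a log2 ratio of 0.42 ± 0.066 (SE, 6 arrays, 95% interval 0.28 to 0.57, adjusted p = 0.00635 by limma).

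The other probes of Prkce gave smaller ratios. On the plus strand, the brightest probe lies farthest towards the 3′ end, and A_52_P31593, whose 60 bases span 24393 bases of the genome, lies upstream of it. That dim junction-spanning probe gave a log2 ratio of 0.07 (95% interval -0.04 to 0.18), but 0.27 ± 0.062 (SE) from processed signals of the scanner software and 0.29 ± 0.060 from the authors' deposited log ratios. Probe A_52_P375455, still farther upstream, gave 0.15 (0.03 to 0.26). Neither of these probes was called in the main fit over all kept probes (adjusted p = 0.577 and 0.194 by limma). Both are annotated to the RefSeq transcript of Prkce, and the brightest probe to another cDNA sequence. The brightest probe exceeded the junction-spanning one by 0.35 on the log2 scale (95% interval 0.16 to 0.54 over 6 arrays), and exceeded A_52_P375455 by 0.28 (-0.09 to 0.64). A probe nearest the 5′ end, A_52_P647188, was not well above background on any array. The gap to the junction-spanning probe was smaller, 0.15 (-0.10 to 0.40), with the processed signals and with the deposited ratios. Those settings differ only by a constant on each array, which drops out of a difference between probes, so their gaps are the same by construction. With median centring the gap was again 0.35, with a wider interval (-0.01 to 0.71). The intervals with processed signals, deposited ratios and median centring included 0. With a normexp offset of 16 the gap was 0.33 (0.13 to 0.53), and with outlier spots kept 0.36 (0.16 to 0.55), and these intervals excluded 0. The value printed for the gene is that of the most 3′ probe. The mean of its kept probes gave a log2 ratio of 0.21, which was still called.

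Raw ratios of the brightest Prkce probe were 0.22, 0.82, 0.39, 0.24, 0.27 and 0.59 on replicates 1 to 6, all of 1 sign. Replicate 2 was the highest, and by slide the log2 ratio was 0.52, 0.32 and 0.43. No slide stood apart from the rest in sign.

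Prkcq encodes PKC theta, the form that gathers at the contact between a T cell and an antigen-presenting cell and leads to NF-kappaB. Its level in VIP-treated samples had a lowest value of 10.66, a median of 11.06 and a highest value of 11.44, against 10.72, 11.05 and 11.66 in untreated samples. The ranges overlapped almost wholly. Its log2 ratio was -0.11 (95% interval -0.20 to -0.01), with an unadjusted p of 0.0304 and an adjusted p of 0.244 by limma, so Prkcq was not called. A dimmer probe, A_52_P259508, gave -0.14 (-0.27 to -0.01). The brightest probe of the gene, A_52_P72587, was measured on only 1 array with VIP in Cy3 because the scanner software marked its spots as outliers on 2 arrays. With those spots kept it gave -0.17 ± 0.052 (SE, 6 arrays). All 3 probes of Prkcq thus had ratios below 0, and A_52_P259508 reached -0.20 with the processed signals.

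Prkcd encodes PKC delta, which is known for its part in B cell tolerance and in cell death. Its level had a lowest value of 11.72, a median of 11.85 and a highest value of 12.38 in VIP-treated samples, against 11.62, 11.81 and 12.70 in untreated samples. The log2 ratio was -0.01 (95% interval -0.11 to 0.09), and the second probe, A_52_P197498, gave -0.02 (-0.12 to 0.09). Both probes of Prkcd thus had intervals that end near 0.1 on either side of 0. Prkch, which encodes PKC eta, had levels with a lowest value of 10.61, a median of 10.77 and a highest value of 11.11 in VIP-treated samples, against 10.52, 10.73 and 11.01 in untreated samples. Its log2 ratio was 0.09 (-0.01 to 0.18), with a raw ratio above 0 on 5 of 6 arrays, and it was not called (adjusted p = 0.361 by limma).

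The atypical forms, which bind the polarity protein Par6 through an amino-terminal domain, were not called. Prkci encodes PKC iota, called PKC lambda in the mouse, and was measured on 5 arrays. Its level had a lowest value of 9.64, a median of 9.69 and a highest value of 10.26 in VIP-treated samples, against 9.57, 9.72 and 10.38 in untreated samples, and its log2 ratio was -0.03 (95% interval -0.14 to 0.08). Prkcz encodes PKC zeta. Its level in VIP-treated samples had a lowest value of 12.03, a median of 12.43 and a highest value of 12.77, against 12.16, 12.53 and 12.66 in untreated samples. The ranges of both genes overlapped.

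For Prkcz the log2 ratio was -0.08 (95% interval -0.18 to 0.03) by the brightest probe. Probe A_52_P284889, which lies nearest the 3′ end at chr4:154634335-154634394 on the minus strand, gave -0.18 (-0.30 to -0.05), with a raw ratio below 0 on 6 of 6 arrays. The junction-spanning probe A_52_P600822 gave 0.02 (-0.09 to 0.14). The brightest probe differed from these by 0.10 (-0.02 to 0.22) and -0.10 (-0.25 to 0.05). Neither difference between probes of Prkcz excluded 0.

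**Figure D3:**
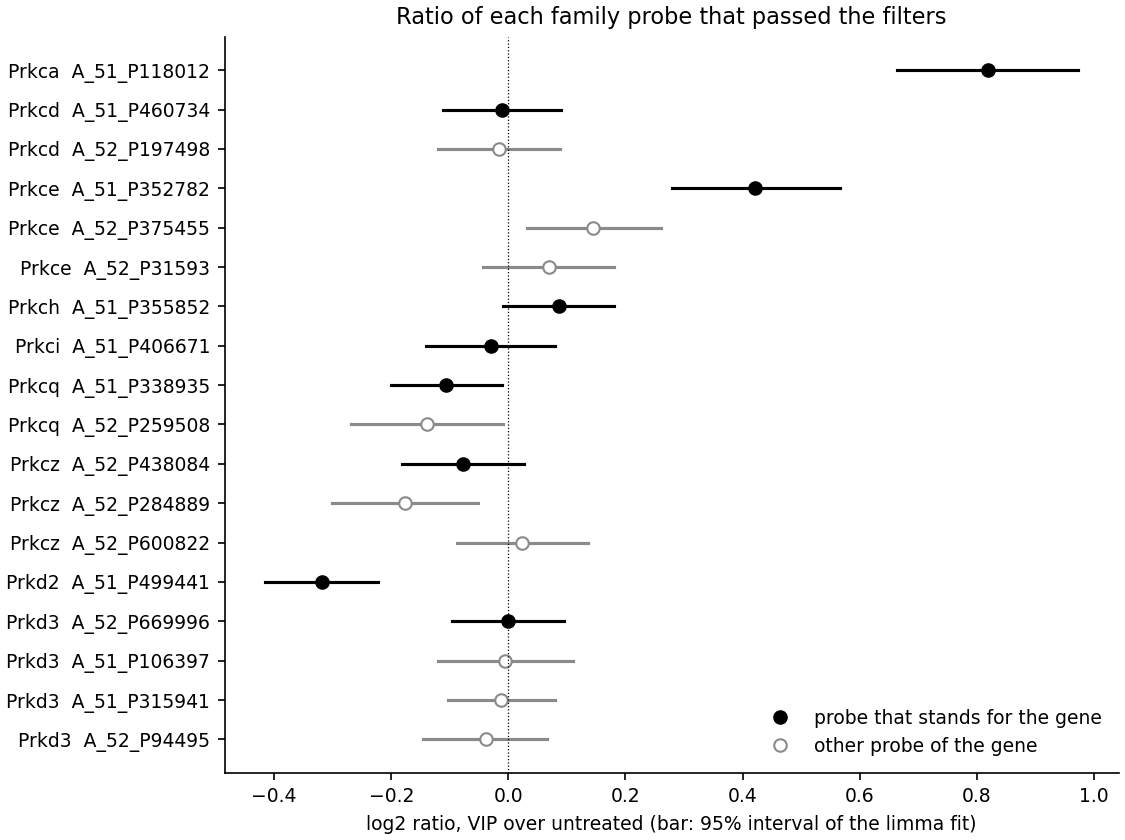
Log2 ratio of VIP-treated over untreated (horizontal axis) with its 95% interval for the 18 family probes that passed the filters, with the probe that stands for each gene in black and other probes open. Probes of Prkcd and of Prkd3 lie close together around 0, while those of Prkce spread from 0.07 to 0.42.

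Of the PKD genes, Prkd2, which encodes the PKD form best known in T cells, fell. Its level had a lowest value of 13.45, a median of 13.68 and a highest value of 14.44 in VIP-treated samples, against 13.69, 14.17 and 14.39 in untreated samples. The ranges overlapped widely, but these levels still hold the dye effect. VIP-treated levels were 13.45, 13.49 and 13.61 with Cy5 (replicates 1, 3 and 5) and 14.44, 14.15 and 13.75 with Cy3 (replicates 2, 4 and 6). In the fit, which removes the dye effect, Prkd2 was 1.25-fold lower with VIP, a log2 ratio of -0.32 ± 0.044 (SE, 6 arrays, 95% interval -0.42 to -0.22, adjusted p = 0.00323 by limma).

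The raw ratios of Prkd2 split by dye orientation. They were -0.72, -0.69 and -0.56 with Cy5 on the VIP-treated RNA (replicates 1, 3 and 5). With the dyes the other way (replicates 2, 4 and 6) they were 0.05, -0.06 and 0.07. The fitted effect of Cy5 over Cy3 was -0.34, about as large as the ratio itself, so only 4 of 6 arrays were lower with VIP before it was removed. Without a dye term the log2 ratio was again -0.32 but the gene was not called (adjusted p = 0.394 by limma). With the dye effect removed, the slides, each of which holds both dye orientations, gave -0.34, -0.37 and -0.25. Prkd2 has 1 probe on the array.

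Prkd3 had 4 kept probes, and its log2 ratio was -0.0003 with a 95% interval from -0.10 to 0.10. Its level had a lowest value of 10.71, a median of 11.04 and a highest value of 11.17 in VIP-treated samples, against 10.90, 10.98 and 11.16 in untreated samples. The other probes gave -0.005, -0.01 and -0.04, and the dimmest was well above background on only 3 arrays with VIP and 2 untreated. That interval belongs to the brightest probe alone. The 2 dimmest probes moved to -0.18 ± 0.164 and 0.063 ± 0.237 (SE) with the processed signals. The probe of Prkd1, the founding PKD gene, was not well above background in either channel of any array, so Prkd1 was not tested.

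**Figure D4:**
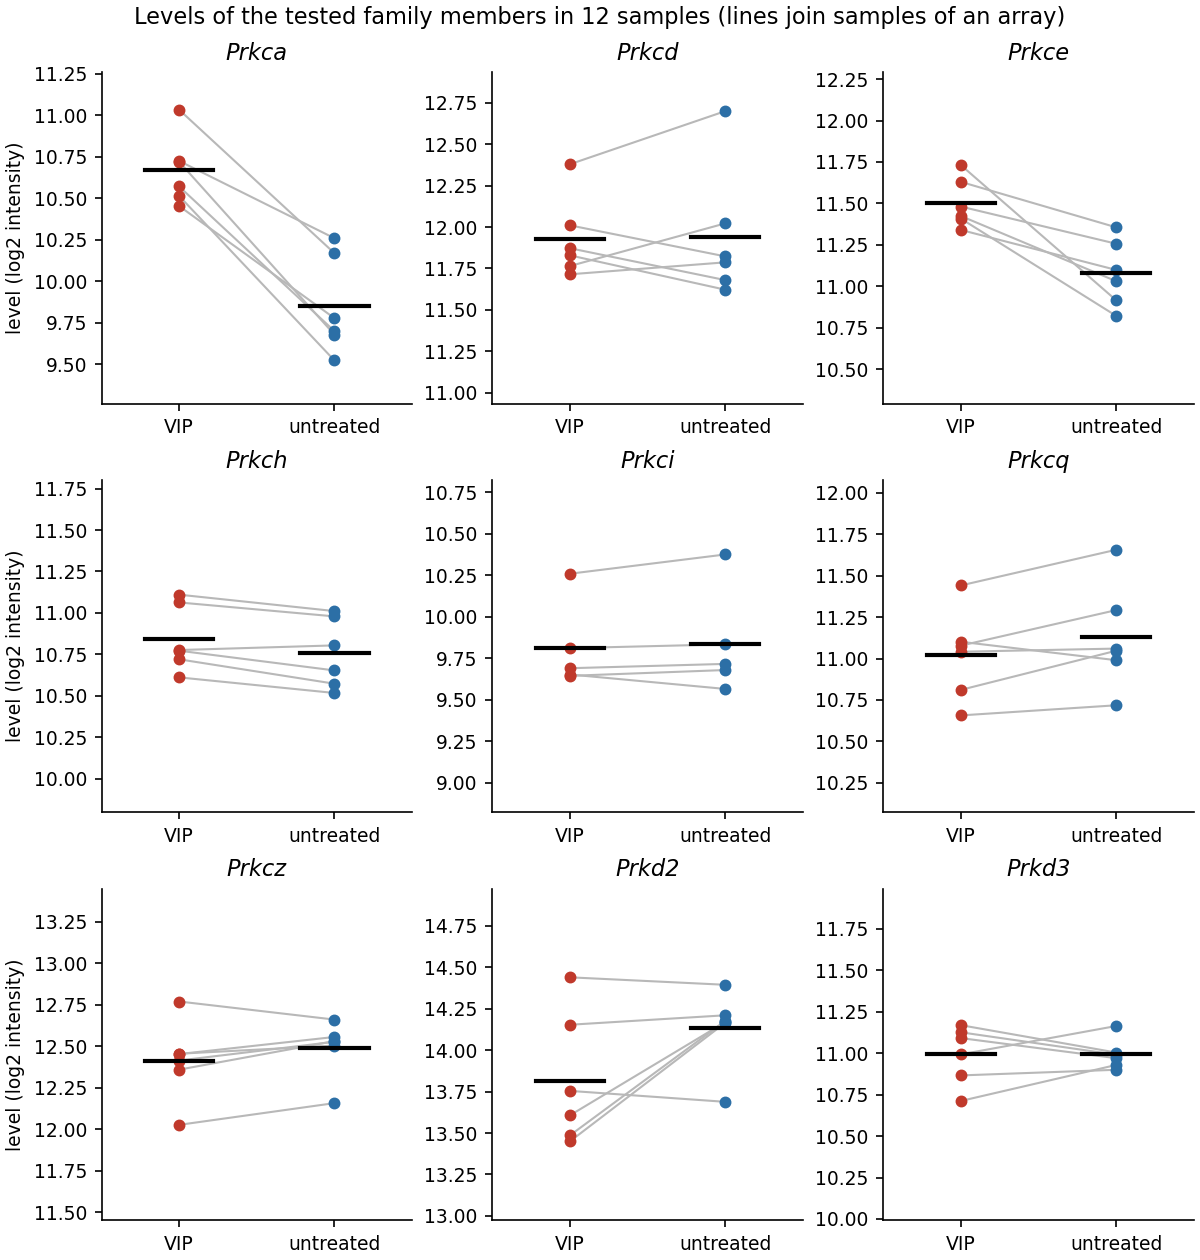
Log2 intensity after scaling between arrays (vertical axis, each panel spanning 2 units) of the probe that stands for each of the 9 tested members. VIP-treated samples stand left of untreated ones, lines join the samples of an array and black bars mark the means. Prkca alone has groups that do not overlap, and Prkci has 5 arrays where the others have 6.

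Because VIP raises cyclic AMP, promoters were read for the cyclic AMP response element (CRE), TGACGTCA, and for its core TGACG, which lies within it, both on either strand. In the RefSeq table on GRCm38.p6, with 250 bases before and 50 after each start, 8 of the 10 members had an entry, in 13 windows, and Prkce and Prkch had none. Of all 32851 windows of 300 bases, 1.79% held the full letters and 20.81% the core. Among the members, 1 window held the full letters and 2 held the core, all of them of Prkcz, whose log2 ratio stood near 0. The called genes Prkca and Prkd2 held neither in these windows, which says only that these letters are not there. The 250 bases before the start are shown for Prkca, the member with the largest ratio, and for the Prkcz window with the full letters, where capitals mark the letters that lie before the start.
Prkca, chr11:108343889-108344138, minus strand: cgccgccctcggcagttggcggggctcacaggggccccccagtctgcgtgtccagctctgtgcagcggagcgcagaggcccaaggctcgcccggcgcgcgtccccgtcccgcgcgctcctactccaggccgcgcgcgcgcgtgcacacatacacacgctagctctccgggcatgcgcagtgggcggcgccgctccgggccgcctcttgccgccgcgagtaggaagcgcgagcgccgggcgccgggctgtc
Prkcz, chr4:155345790-155346039, minus strand: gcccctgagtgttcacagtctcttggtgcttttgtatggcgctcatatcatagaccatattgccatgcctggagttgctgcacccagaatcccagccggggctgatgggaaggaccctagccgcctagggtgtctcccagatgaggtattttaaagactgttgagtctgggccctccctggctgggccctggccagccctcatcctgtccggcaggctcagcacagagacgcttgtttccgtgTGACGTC
In the Prkcz window the match begins 7 bases before the start and runs into its first base, and the window upstream of Prkca is made of 76.8% G and C.

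The genes whose ratios varied over the arrays most like those of Prkca were sought among 435 called genes measured on all 6 arrays. With the dye effect removed, Pearson's r was 0.991 for Pik3cd, a phosphoinositide 3-kinase subunit gene, and 0.971 for Sspn, the sarcospan gene. Spearman's rho was 1 for Pik3cd and 0.943 for Sspn. Pik3cd nonetheless fell with VIP, with a log2 ratio of -0.27, while Sspn rose by 0.49. The 6 points share their arrays, their RNA pools and the removal of a dye term, so these values describe the arrays and carry no test.

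Genes around the family were taken from 5 lists of 85 genes, of which 78 were tested, 1 rose and 2 fell (limma over all genes), with a median log2 ratio of 0.002. The 3 called stand beside 2.95% called over all genes, a share that 3 of 78 is near. All 3 come from the list of diacylglycerol and kinase activation, with 22 tested genes and a median of -0.02. Of these 22 genes, 7 had an unadjusted p under 0.05 by limma, beside 16.2% of all genes. Dgkh rose by 0.28 on the log2 scale, while Dgkd fell by 0.22 and Dgkz by 0.18, and all 3 encode diacylglycerol kinases, which turn diacylglycerol into phosphatidic acid. Each had the same sign on 6 of 6 raw ratios. A second probe gave 0.11 for Dgkh and -0.10 for Dgkd, and with the mean of the probes neither was called (adjusted p = 0.0543 and 0.0694 by limma). Leaving out replicate 1 or 5 ended the call of Dgkh (adjusted p = 0.0596 and 0.0617 by limma) and that of Dgkd (0.0914 and 0.0709). Dgkz lost its call whichever of the 6 replicates was left out (adjusted p from 0.0777 to 0.192 by limma).

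The other lists had no called gene by limma, and their counts at an unadjusted p under 0.05 stand beside 16.2% of all genes. Of the 5 tested PKC and PKN relatives 1 had an unadjusted p under 0.05, the classical PKC gene Prkcb, whose log2 ratio was -0.15 (limma adjusted p = 0.202), and the next lowest p was that of the PKN gene Pkn2, at -0.06. Of 9 other diacylglycerol effectors 2 had an unadjusted p under 0.05, both exchange factors for Ras, with Rasgrp1 at -0.25 (5 arrays) and Rasgrp4 at 0.17. Second probes gave -0.13 for Rasgrp1 and -0.01 for Rasgrp4, and the mean of the probes gave -0.14 and 0.08. Of 15 scaffolds and adaptors 3 did, among them Pard6g, a Par6 gene that binds atypical PKC, at 0.23, and Wwc1 at 0.17. Pard6g was called with the mean of its probes (adjusted p = 0.0121 by limma) and without replicate 4 (0.0295), and Wwc1 stood at 0.44 with the processed signals and 0.46 with the deposited ratios, not called in either. Of 27 substrates and effectors 3 did, among them Lcp1, the gene of the actin bundler L-plastin, at 0.18, and Kidins220, a PKD substrate gene, at -0.15. The medians of these lists ran from 0.002 to 0.027, against -0.005 over all genes. The receptor gene Vipr1 stood at -0.02 (95% interval -0.11 to 0.08) and was well above background on 6 of 6 arrays in both treatments.

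**Figure D5:**
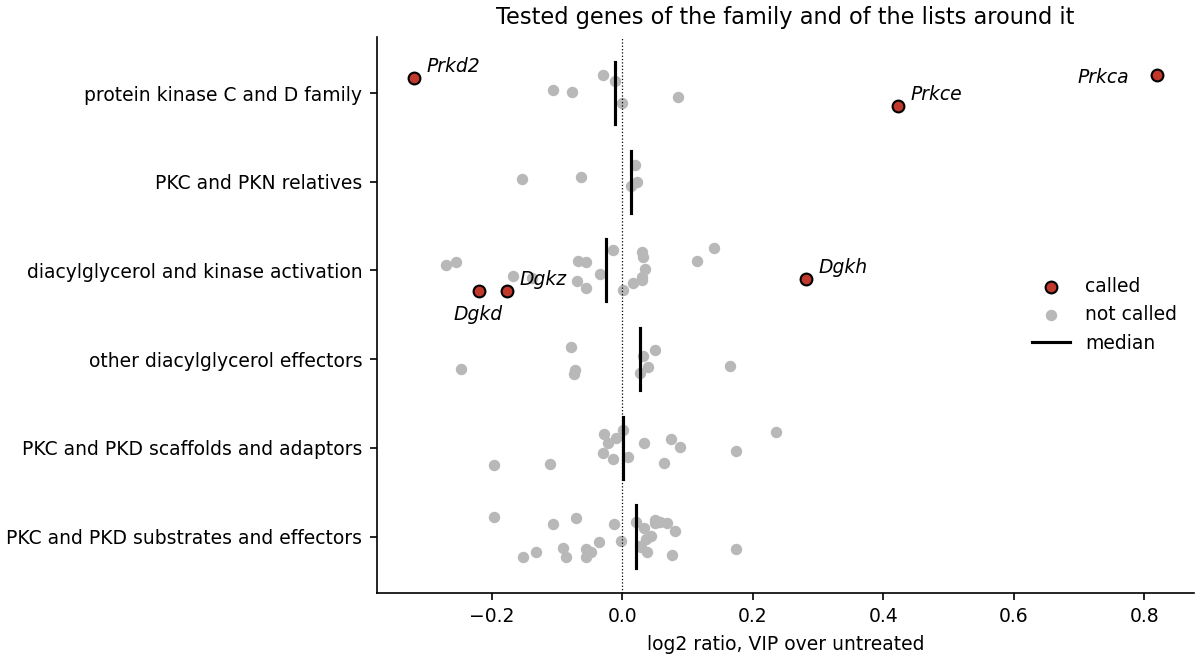
Log2 ratio of VIP-treated over untreated (horizontal axis) for each tested gene of the family and of 5 lists around it, with called genes in red and named, others in grey and a black line at each list's median. Called genes appear in the family and among the genes of diacylglycerol and kinase activation, where Dgkh stands at 0.28 and Dgkd and Dgkz at -0.22 and -0.18.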

How the data were processed

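Members and gene lists were chosen with earlier results of these data known. The authors deposited 1 scanner table per array with an intensity for every spot and channel, written by the scanner software (Agilent Feature Extraction, version 9.5.1.1) and placing probes on mm9, per the file headers. Per the labels' protocols, 250 ng of RNA was labelled. The authors also deposited log10 ratios of VIP-treated over untreated. They matched the Cy5 over Cy3 ratios of the scanner tables once the sign was turned on replicates 2, 4 and 6 (largest difference 4.77e-06). These deposited ratios have a median of 0 on every array, where 12.5% to 24.2% of them are exactly 0. They served as an alternative. Mean signal and median local background were corrected with normexp (offset 50) and normalized by loess within arrays, leaving out control spots and spots marked as outliers (1.93% to 8.96% per array), with limma 3.58.1 in R 4.3.3. A probe was kept if well above background on at least 3 of 6 arrays in the channel of either treatment. It also needed values on 2 or more arrays in each of the 2 dye orientations (27454 of 41174 probes were kept). The brightest kept probe stands for a gene, which gave 19225 genes. Levels are log2 intensity after Aquantile scaling between arrays, which leaves the dye effect of each probe in them. The log2 ratio of VIP over untreated was fitted by limma, adding a dye effect for each probe and moderating the variances (4 residual and 7.03 prior degrees of freedom), 2-sided, with Benjamini-Hochberg adjustment over all genes. Both samples of a replicate share an array, so the fit is paired by design. Differences between probes were taken per array, with the same dye term and 4 degrees of freedom. The code was tested on simulated data. Named were all members, from each list the called genes up to 4 or otherwise the 2 with the lowest p, the 3 genes most like Prkca, of which 1 is not reported here, and Vipr1. Where labels call replicates biological, p-values measure the spread between these pools, and the number of arrays limits the precision (median SE 0.0495 on the log2 scale). The share of spots well above background ran from 59.1% to 67.8% in the Cy3 channel and from 65.5% to 79.0% in the Cy5 channel. Gene symbols were updated through RefSeq accessions for 24844 probes. The protein sequences of the members are not used here.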

Additional observations from a re-analysis of the deposited data

Results flagged for a closer look

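In 4 of 51 groups of 6 values (levels and ratios of the kept family probes), 1 sample lay apart, with a gap to its nearest neighbour of 0.628 to 0.775 of the whole range, above Dixon's critical value. Chance flags about 1 in 20 groups. Replicate 6 of the untreated samples stood at 12.70 for Prkcd, where the others ran from 11.62 to 12.02, and at 13.69 for Prkd2, where the others ran from 14.17 to 14.39. Replicate 5 of the untreated samples stood at 12.16 for Prkcz, with the others from 12.50 to 12.66, and at 10.59 for the second probe of Prkcd, with the others from 10.93 to 11.03. These values are log2 intensities of single channels. No VIP-treated level and no ratio with the dye effect removed was set apart in this way.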

How the results depend on the processing

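Under 19 alternatives, the 3 called members kept their direction, but several of these could not have turned it. Without a dye term, with slide as a block, with other filters on signal or unpaired, their log2 ratios were those of the main fit. These were 0.8187 for Prkca, 0.4222 for Prkce and -0.3186 for Prkd2. The family had 3 called members without any 1 replicate, and under 15 of the 19 alternatives. It had 1, Prkca, with the scanner software's processed signals, with the authors' deposited log ratios and without a dye term. In these 3 settings Prkce stood at 0.42, 0.44 and 0.42 (adjusted p = 0.114, 0.0894 and 0.0651 by limma) and Prkd2 at -0.35, -0.33 and -0.32 (0.0798, 0.0662 and 0.394). With no replicate block, that is with the pairing ignored and 12 channels fitted as unpaired samples, 0 members were called by limma (2 had an unadjusted p under 0.05), with Prkca at 0.82 (adjusted p = 0.12), Prkce at 0.42 (0.579) and Prkd2 at -0.32 (1). Without each replicate in turn, Prkca ran from 0.77 to 0.91, Prkce from 0.36 to 0.50 and Prkd2 from -0.34 to -0.30, and the mean of its probes put Prkce at 0.21. The sign of Prkd3 turned, to 0 with a normexp offset of 16, 0.022 with median centring, 0.0035 with outlier spots kept, and 0.0074, 0.0010, 0.019 and 0.0047 without replicates 2, 3, 4 and 5. That of Prkcd turned to 0.015 without replicate 6 and 0.017 with only the 4 arrays whose pools matched in sex-linked transcripts (an alternative chosen after seeing the data), where Prkci turned to 0.0005. Without each replicate in turn, Prkcd ran from -0.046 to 0.015 and Prkd3 from -0.027 to 0.019. Of all genes, 33 changed with the processed signals (24 higher, 9 lower), 333 with an offset of 16 (199 and 134), 298 with median centring (199 and 99), 41 with the deposited ratios (31 and 10), 112 without a dye term (77 and 35) and 3 unpaired (3 and 0, with 115 lower at an unadjusted p under 0.05). With outlier spots kept 154 were lower, and on the matched arrays 167. Leaving out 1 replicate gave 218 to 524 changed genes (218 without replicate 5 and 275 without replicate 1), 134 to 273 higher and 84 to 251 lower. Of the pathway genes, 1 was called with the offset of 16, with median centring and on the matched arrays, and 0 by limma with the processed signals (14 had an unadjusted p under 0.05), the deposited ratios (14), no dye term (11) and the unpaired fit (0), with 0 to 3 without 1 replicate. Signal limits Prkd1 and the fourth Prkce probe, which were not well above background.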
